A study of Mus musculus with 8 samples.

Results

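The genes described here encode 7 G protein-coupled receptors of lipid mediators made from arachidonic acid: the leukotriene receptor genes Ltb4r1, Cysltr1 and Cysltr2 and the prostaglandin receptor genes Ptger2, Ptger4, Ptgir and Ptgdr2. They were chosen by name, as the probe sets that the array's platform table assigns to 1 of these symbols alone. Each gene had 1 such probe set, which gave 7 genes of 19938 with a symbol of their own. To be tested, a gene had to reach a log2 signal of 7.85 on 2 or more arrays, a value set at the median over every probe set and array. Of the 7 receptor genes, 6 passed this filter among 11128 genes in all, and Ptgdr2, which reached it on 0 arrays, was read from a fit without the filter.

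Transcript levels were measured on 8 mouse arrays, 1 per RNA sample, from CD4 T cells labelled as Th17 cells, the T helper cells that make interleukin 17. Naive cells had been stimulated through CD3 and CD28 together with interleukins 1, 6 and 23, the culture that the labels call pathogenic Th17. The arrays form 2 experiments with 2 genotypes each and 2 biological replicates per group. The labels call these groups SRC-3 deficient (source SRC-3 (f/f) mice), wild type of the SRC-3 experiment, RORgt deficient (RORgt (-/-) mice) and wild type of the RORγt experiment. SRC-3 is a steroid receptor coactivator, and RORγt is the nuclear receptor that directs Th17 differentiation. The labels name no strain, age or sex of the mice and no Cre line behind the f/f source, and do not say whether replicates are separate mice. Only the SRC-3-deficient pair can be seen to come from different mice, by the sex read from Xist (7.10 and 13.60). The p-values cover only the spread between these samples, which in the other groups may be technical.

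As background, leukotrienes are made from arachidonic acid by the 5-lipoxygenase route and prostaglandins by the cyclooxygenase route. Leukotriene B4 acts on BLT1, the product of Ltb4r1, and draws neutrophils and effector T cells into inflamed tissue, while the cysteinyl leukotrienes act on the products of Cysltr1 and Cysltr2. Prostaglandin E2 acts on EP2 and EP4, the products of Ptger2 and Ptger4, which raise cAMP in T cells and have been tied to Th17 expansion and interleukin 23 signalling. Ptgir encodes the prostacyclin receptor, which also raises cAMP, and Ptgdr2 encodes CRTH2, a prostaglandin D2 receptor best known from Th2 cells.

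The RNA carried the marks of T cells on every array. The 6 measured T cell markers (Cd3d, Cd3e, Cd3g, Cd4, Cd28 and Cd5) reached the filter on all 8 arrays, and their mean log2 signal lay between 12.83 and 13.01. Of 5 Th17 markers tested, Il17a, Il17f, Il23r and Ccr6 were lower in the RORγt-deficient cells. Their log2 fold changes were −4.11, −3.36, −3.23 and −1.59, each with a limma adjusted p under 0.05. Rora, the remaining marker, gave −0.02 (limma adjusted p = 0.949). In the SRC-3-deficient cells Il17f alone passed (−1.03, limma adjusted p = 0.0347). There Il17a, Il23r and Rora gave −1.10, −0.68 and −0.40 (limma adjusted p = 0.0567, 0.108 and 0.360), and Ccr6 lay the other way at 0.21 (0.534). Ncoa3, the gene of SRC-3, read 11.15 and 10.97 without SRC-3 against 11.76 and 11.53 in its wild type (−0.58, limma adjusted p = 0.0567). The sex of the mice, read from Xist, moved with the RORγt genotype: Xist read 6.37 and 6.08 without RORγt against 12.55 and 12.76 with it. Of the SRC-3 experiment, only deficient replicate 1 had a low Xist signal (7.10 beside 13.52 to 13.65). Sex and RORγt genotype cannot be told apart within the RORγt experiment.

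**Figure D1:**
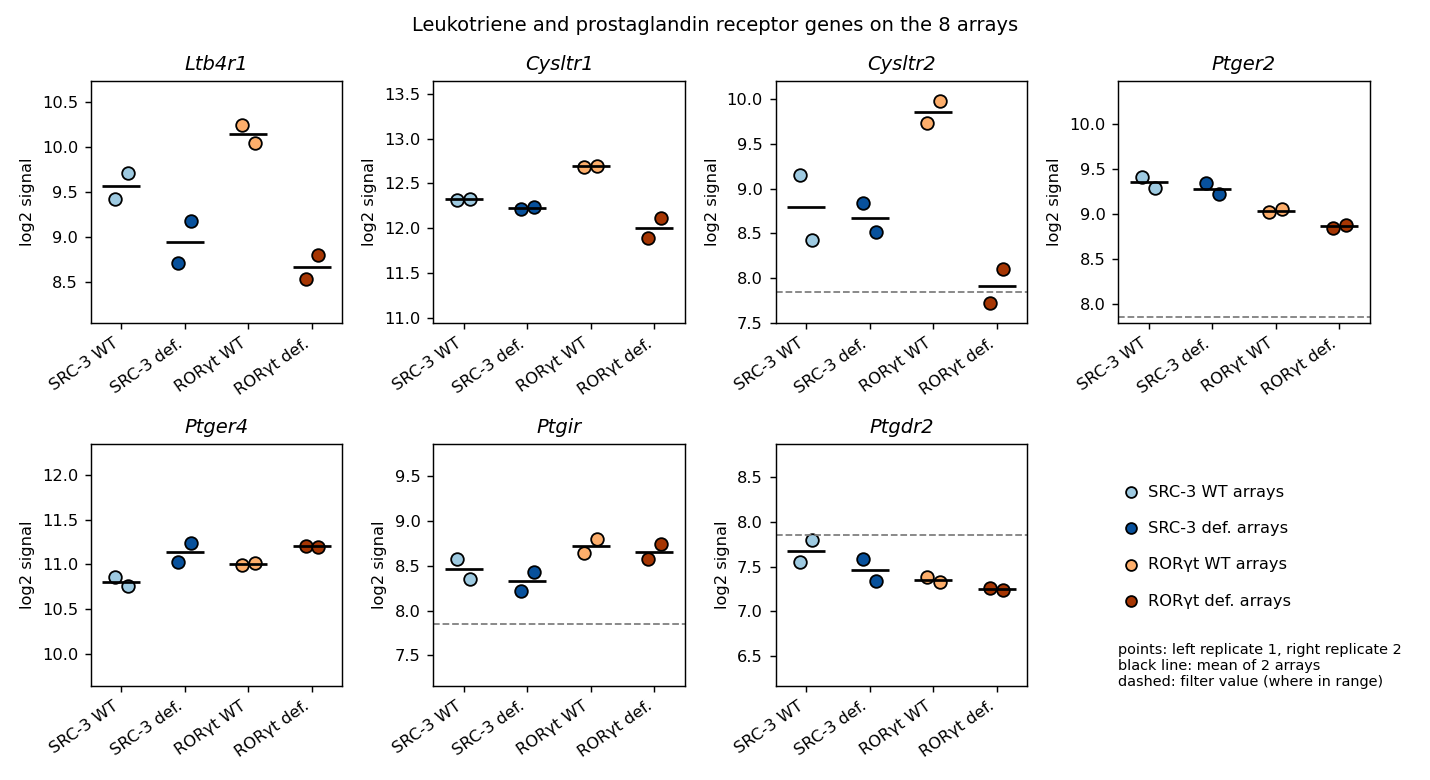
Log2 RMA signal of each receptor gene (vertical axes, all spanning the same range of log2 units) on the 8 arrays, with 1 point per array, the mean of each group of 2 as a black line and the filter value of 7.85 dashed where it falls within the panel. In Cysltr1 and Cysltr2 both RORγt-deficient arrays lie below all other arrays; in Ltb4r1 they lie below all but SRC-3-deficient replicate 1 (8.71), while the prostaglandin receptor panels span at most 0.58 log2 units.

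The RORγt experiment asks what changes in Th17 cells that lack this receptor. All 3 leukotriene receptor genes were lower in the deficient cells, and none of the 4 prostaglandin receptor genes passed the test. Cysltr2 fell to 0.260 of its wild-type level, Ltb4r1 to 0.359 and Cysltr1 to 0.620. Thus 3 of the 6 receptor genes tested were called at an adjusted p of 0.05, all lower, where 19.4% of all 11128 genes were called and 9.37% were called lower. The median log2 fold change was −1.48 over the 3 leukotriene receptor genes and −0.06 over the 3 prostaglandin receptor genes tested, beside 0.00 over all genes.

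Cysltr2 (probe set 10421517) encodes CysLT2, the second receptor of the cysteinyl leukotrienes. Its log2 signal was 7.72 and 8.10 without RORγt against 9.73 and 9.98 in the wild type. The groups lay far apart, and the deficient arrays stood on either side of the filter value. The group means were 7.91 ± 0.27 and 9.85 ± 0.17 (SD, n = 2), which differed by −1.94 on the log2 scale (SE 0.24, limma adjusted p = 0.0032, unadjusted p = 5.80e-05). By size of log2 fold change it ranked 11 of 11128 from the lowest.

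Ltb4r1 (probe set 10415392), the gene of the high-affinity leukotriene B4 receptor BLT1, read 8.53 and 8.80 without RORγt against 10.24 and 10.05 with it. Both deficient arrays lay more than 1 log2 unit below both wild-type arrays. The means were 8.67 ± 0.19 and 10.14 ± 0.14 (SD, n = 2), a difference of −1.48 (SE 0.17, limma adjusted p = 0.00265) that ranked 18 from the lowest.

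Cysltr1 (probe set 10606355), the gene of the receptor CysLT1 that asthma drugs such as montelukast block, read 11.89 and 12.11 without RORγt against 12.69 on both wild-type arrays. The wild-type pair agreed closely and the deficient pair lay below it. The means were 12.001 ± 0.16 and 12.69 ± 0.0046 (SD, n = 2), a log2 difference of −0.69 (SE 0.08, limma adjusted p = 0.00228). Cysltr1 lies on the X chromosome, and the sex of the cultures differed with genotype. Of 317 X-linked genes tested, 7.26% were called lower, beside 9.43% of the others. Within the SRC-3-deficient pair, the array with the low Xist signal gave 12.22 for Cysltr1 and the other 12.24. A share over X-linked genes does not speak to 1 gene, and this pair holds 1 array of each kind. Sex and RORγt genotype cannot be told apart for Cysltr1.

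The 3 falls passed the test with any 1 of the 8 arrays left out (limma adjusted p at most 0.0358; log2 fold changes −2.13 to −1.75 for Cysltr2, −1.61 to −1.34 for Ltb4r1 and −0.80 to −0.58 for Cysltr1). With a term for sex, whose size rests on the SRC-3-deficient pair alone, the log2 fold changes were −2.26, −1.01 and −0.66 and the limma adjusted p 0.0631, 0.0814 and 0.0773, so all 3 calls were lost.

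The sequences upstream of Ltb4r1 and Cysltr2 are shown because these genes fell most. Of the 7 receptor genes, 6 matched an entry in the table of RefSeq promoters (GRCm38.p6), and Cysltr1 did not. The stretches run 5′ to 3′ on the gene's strand, over the 250 bases before the annotated start, at chr14:55765712-55765961 (plus strand) for Ltb4r1 and chr14:73049115-73049364 (minus strand) for Cysltr2. Capitals mark matches to any of 5 motifs.
Ltb4r1: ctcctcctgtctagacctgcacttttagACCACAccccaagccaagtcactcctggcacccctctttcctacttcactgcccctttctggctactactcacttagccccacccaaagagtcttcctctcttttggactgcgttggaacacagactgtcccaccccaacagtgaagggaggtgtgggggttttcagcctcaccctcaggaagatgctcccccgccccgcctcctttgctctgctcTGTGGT
Cysltr2: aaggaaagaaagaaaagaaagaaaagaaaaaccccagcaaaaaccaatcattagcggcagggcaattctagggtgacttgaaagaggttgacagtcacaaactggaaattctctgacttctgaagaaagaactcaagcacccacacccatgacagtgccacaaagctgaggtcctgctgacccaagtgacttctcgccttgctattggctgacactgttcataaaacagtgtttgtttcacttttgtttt
The motifs, searched on both strands, were AGGTCA (the core of the ROR response element), TTCNNNGAA (STAT), TGANTCA (AP-1), TGACGTCA (the cAMP response element) and TGTGGT (RUNX). Ltb4r1 held 2 matches, both to TGTGGT, beginning 222 bases (minus strand) and 6 bases (plus strand) before the start, and they did not overlap another match. The other 5 stretches, those of Cysltr2, Ptger2, Ptger4, Ptgir and Ptgdr2, held 0 matches. Among 32851 promoter stretches of this length, 14% held AGGTCA, 7.02% TTCNNNGAA, 6.75% TGANTCA, 1.55% TGACGTCA and 14% TGTGGT. A match is a string of letters and not a shown binding site. GC made up 56.8% of the Ltb4r1 stretch and 42.8% of that of Cysltr2, between 38.0% for Ptger2 and 66.8% for Ptger4.

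The prostaglandin receptor genes gave small differences in the RORγt comparison. Ptger2, the gene of EP2, read 8.85 and 8.88 without RORγt against 9.02 and 9.05 with it (log2 difference −0.17, SE 0.07, 95% interval −0.34 to −0.01, limma adjusted p = 0.123). Ptger4, the gene of EP4, lay the other way, at 11.21 and 11.19 against 10.998 and 11.02 (0.19, SE 0.08, interval 0.01 to 0.38, limma adjusted p = 0.127). The groups did not overlap for either gene, as was so for 5 of the 6 receptor genes tested and for 70.0% of all genes. Both passed the test when the spread was taken from the 4 RORγt arrays alone (limma adjusted p = 0.0470 and 0.0323) or with array weights (0.0388 and 0.0374). Ptgir read 8.57 and 8.74 against 8.64 and 8.80, which overlapped (−0.06, interval −0.33 to 0.20, limma adjusted p = 0.744). Ptgdr2 lay below the filter value on all 8 arrays, with 7.26 and 7.24 beside 7.38 and 7.33 (−0.10, interval −0.34 to 0.13, limma adjusted p = 0.645 without the filter). With the term for sex the log2 fold changes moved to −0.30 for Ptger2, 0.40 for Ptger4, 0.15 for Ptgir and −0.35 for Ptgdr2. That of Ptgir changed sign, and none of these genes passed.

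The SRC-3 experiment asks the same of the coactivator. Of the 6 receptor genes tested 0 passed by limma, where 0.225% of all genes were called, and 2 had an unadjusted p under 0.05 (12.5% of all genes). These were Ltb4r1 and Ptger4. Ltb4r1 read 8.71 and 9.18 without SRC-3 against 9.43 and 9.72 with it (log2 difference −0.63, SE 0.17, interval −1.03 to −0.22, limma adjusted p = 0.203). Both deficient arrays lay below both wild-type arrays, and the deficient pair had an SD of 0.33. The log2 fold change ranked 27 of 11128 from the lowest, and it was −0.39 without deficient replicate 1 and −0.86 without deficient replicate 2. Deficient replicate 1, which gave the 8.71, is the array of this experiment with the low Xist signal. The sex term gives the same −0.39 by construction, because in this experiment it marks deficient replicate 1 alone. Sex and the spread of this pair cannot be told apart.

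Ptger4 read 11.03 and 11.24 without SRC-3 against 10.86 and 10.76 with it (0.33, SE 0.08, interval 0.14 to 0.51, limma adjusted p = 0.155). Both deficient arrays were above both wild-type arrays. Cysltr1 gave 12.22 and 12.24 beside 12.32 and 12.33, a small gap without overlap, −0.10 on the log2 scale (interval −0.28 to 0.09, limma adjusted p = 0.697). These were the 3 of 6 receptor genes whose groups did not overlap, which held for 37.2% of all genes. Cysltr2 gave 8.84 and 8.52 beside 9.15 and 8.43, and its wild-type pair was the widest of any receptor gene (SD 0.515). Its log2 fold change of −0.11 had an interval of −0.67 to 0.45 (limma adjusted p = 0.909) and ran from −0.48 without wild-type replicate 2 to 0.25 without wild-type replicate 1.

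The other prostaglandin receptor genes overlapped between the groups of the SRC-3 experiment. Ptger2 gave 9.34 and 9.22 beside 9.42 and 9.29 (−0.07, interval −0.24 to 0.09), and Ptgir gave 8.22 and 8.43 beside 8.58 and 8.35 (−0.14, interval −0.40 to 0.13). Ptgdr2 gave 7.58 and 7.34 beside 7.55 and 7.80 (−0.21, interval −0.45 to 0.03, limma adjusted p = 0.552 without the filter).

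**Figure D2:**
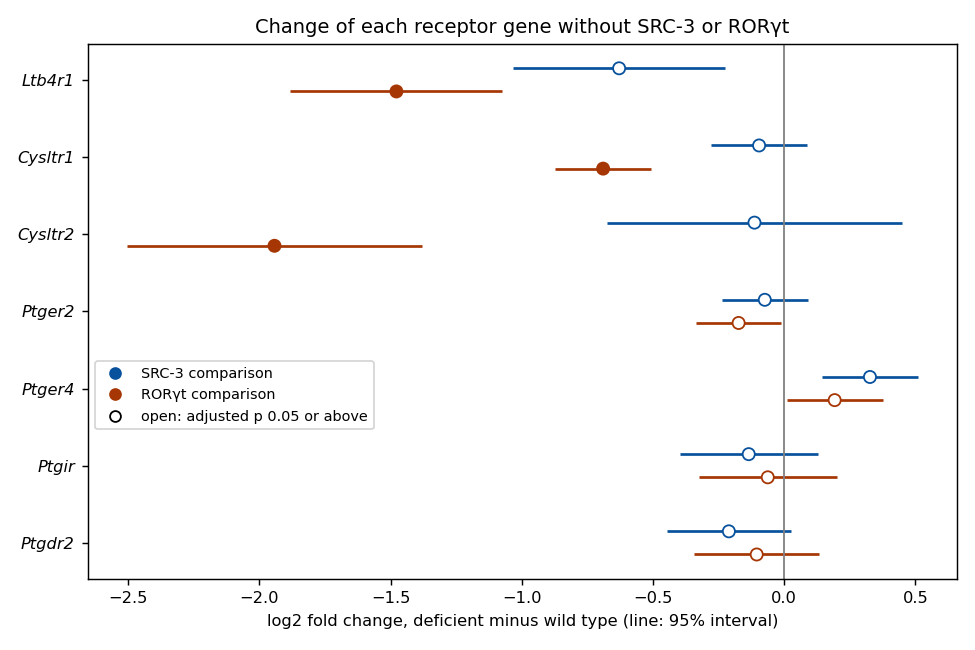
Log2 fold change of each receptor gene, deficient minus wild type (horizontal axis), with its 95% interval from limma, in blue for the SRC-3 comparison and in brown for the RORγt comparison; filled points have an adjusted p under 0.05. The 3 leukotriene receptor genes lie between −1.94 and −0.69 in the RORγt comparison, and the prostaglandin receptor genes lie between −0.21 and 0.33 in both.

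The difference between the comparisons was tested directly, as the RORγt log2 fold change minus that of SRC-3. It was −1.83 for Cysltr2 (SE 0.34, limma adjusted p = 0.0494) and −0.59 for Cysltr1 (SE 0.11, limma adjusted p = 0.0490), so 2 of the 6 receptor genes passed, both lower, where 1.67% of all genes passed and 0.926% were lower. For Ltb4r1 it was −0.85 (SE 0.25, interval −1.42 to −0.28, limma adjusted p = 0.143), which missed the threshold. Over the prostaglandin receptor genes tested it ran from −0.13 to 0.07 (lowest limma adjusted p 0.578). Both calls lay close to the threshold, and both were lost when any 1 array was left out, except that Cysltr2 still passed without replicate 1 of the SRC-3 wild type. The sign stayed negative for Cysltr1, Cysltr2 and Ltb4r1 under every alternative run.

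The wild-type arrays of the 2 experiments also lay apart, and experiment and culture cannot be told apart there. The wild-type mean of the RORγt experiment minus that of the SRC-3 experiment was 1.06 for Cysltr2, 0.57 for Ltb4r1 and 0.37 for Cysltr1, and between −0.32 and 0.26 for the 4 prostaglandin receptor genes. In order of group mean, Cysltr2 ran from RORγt-deficient (7.91) over SRC-3-deficient (8.68) and SRC-3 wild type (8.79) to RORγt wild type (9.85), with the middle groups overlapping. Ltb4r1 kept the same order (8.67, 8.94, 9.57 and 10.14), with the 2 deficient groups overlapping. Cysltr1 did too (12.001, 12.23, 12.32 and 12.69), with 0 overlaps between neighbouring groups. Ptger4 ran from SRC-3 wild type (10.81) over RORγt wild type (11.01) and SRC-3-deficient (11.13) to RORγt-deficient (11.20), and its 2 deficient groups overlapped. Ptger2 ran from RORγt-deficient (8.86) over its wild type (9.03) and SRC-3-deficient (9.28) to SRC-3 wild type (9.35). All 8 arrays of Ptger2, Ptger4, Ptgir and Ptgdr2 lay within 0.48 to 0.58 log2 units, beside 2.25 for Cysltr2, 1.71 for Ltb4r1 and 0.81 for Cysltr1.

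These receptors are also made by cells of the myeloid line, so markers of other cells that a culture could hold were read on the same arrays. In bulk RNA, fewer cells of a type and less RNA per cell cannot be told apart. Of 6 macrophage and monocyte markers, 5 dendritic cell markers, 6 mast cell, basophil and eosinophil markers and 5 neutrophil markers, Cd68, Siglecf and Ly6g passed the filter, and the rest were below 7.85 on all 8 arrays. The mean log2 signal of the macrophage list was 6.99 to 7.0002 without RORγt and 7.16 to 7.17 with it, and that of the dendritic cell list 6.98 to 7.10 and 7.08 to 7.16. For mast cells, basophils and eosinophils it was 5.87 to 5.89 and 5.95, and for neutrophils 7.64 to 7.77 and 7.54 to 7.55. Cd68 and Ly6g were themselves well above the filter, unlike the means of their lists. Cd68 read 9.79 and 10.07 without RORγt against 10.33 and 10.26 with it (−0.37, limma adjusted p = 0.0834). Ly6g read 12.66 and 12.90 against 11.73 and 11.68 (1.08, limma adjusted p = 0.189). None of the 3 passed in either comparison. In the Th2 list, 3 of 4 tested genes were called without RORγt, where 19.4% of all genes were. Gata3, Il13 and Ccr8 rose (0.86, 0.34 and 0.37, limma adjusted p = 0.0138, 0.00976 and 0.0263). Il4 did not pass (0.16, limma adjusted p = 0.541), and Il5 and Ptgdr2 stayed below the filter on all 8 arrays. Without SRC-3, 0 of the 4 passed, and Gata3 gave 0.80 (limma adjusted p = 0.121). Of 5 NK cell markers, Klrd1 rose without RORγt and the other 4 were below the filter on all 8 arrays. Klrd1, a receptor subunit that some T cells also make, read 8.92 and 8.61 without RORγt against 7.01 and 6.71 with it (1.90, limma adjusted p = 0.000485). Klrd1 reached the filter on the 2 RORγt-deficient arrays alone. It was thus tested only through the group in which it was high, and its p-value is no independent support. The mean of the NK list was 6.47 to 6.56 without RORγt and 6.07 to 6.08 with it. The B cell, CD8 T cell and platelet lists had 1 tested marker each, Cd79b, Cd8b1 and Itga2b, at −0.21, 0.18 and −0.07 in the RORγt comparison, and none of them passed in either comparison. The part of cell composition in the leukotriene receptor falls was not tested.

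The other genes of the pathway were read from 6 lists. Their counts stand beside 19.4% of all tested genes called and 9.37% called lower without RORγt, and beside 0.225% called and 12.5% at an unadjusted p under 0.05 without SRC-3. Leukotriene synthesis and export had 5 genes tested, of which 3 rose and 1 fell without RORγt (median log2 fold change 0.33). Abcc1, the exporter of leukotriene C4, fell to 0.677 (−0.56, SE 0.07, limma adjusted p = 0.00294). Mgst2 and Mgst3, microsomal glutathione transferases that can make leukotriene C4, and Dpep2, a dipeptidase that turns leukotriene D4 into E4, rose by 0.62, 0.37 and 0.33 on the log2 scale (limma adjusted p = 0.0185, 0.0130 and 0.0206). Alox5, Alox5ap and Ltc4s, which make leukotrienes in myeloid cells, did not pass the filter. Of 9 genes tested for prostaglandin synthesis and transport, 1 fell and 8 did not pass (median −0.01), a share near that of all genes called lower: Abcc4, an exporter of prostaglandins, gave −0.21 (limma adjusted p = 0.0451). Without SRC-3, 0 of these 14 genes passed by limma (2 at an unadjusted p under 0.05, a share near that of all genes). The values with the smallest p were 0.26 for Mgst3 (limma adjusted p = 0.214) and −0.24 for Abcc4 (0.160).

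Among 12 other receptors of lipid mediators tested, 4 rose and 3 fell without RORγt (median 0.10). Gpr183, the receptor of oxysterols that guides lymphocytes in lymphoid tissue, fell to 0.438 (−1.19, SE 0.10, limma adjusted p = 0.000739), followed by the sphingosine 1-phosphate receptor gene S1pr3 (−0.57) and Gpr132 (−0.41). S1pr1, which lets lymphocytes leave lymph nodes, rose 2.07-fold (1.05, SE 0.09, limma adjusted p = 0.000868), and P2ry10 and S1pr4 rose by 0.66 and 0.42. Without SRC-3, P2ry10, a receptor of lysophosphatidylserine, rose by 0.50 (SE 0.06, limma adjusted p = 0.0347) and the other 11 did not pass; Gpr183 gave −0.58 (limma adjusted p = 0.0692). The P2ry10 call in the SRC-3 comparison was lost without any 1 of 7 arrays, the exception being replicate 1 of the SRC-3 wild type (limma adjusted p 0.0766 to 0.126).

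Downstream of the receptors, 22 genes of G proteins and receptor desensitisation were tested, of which 2 rose and 2 fell without RORγt (median −0.06), a share near the 19.4% of all genes. Grk6, a kinase that desensitises G protein-coupled receptors, and Gnaq, the α subunit Gq, rose by 0.49 and 0.36, while Rgs2 and Rgs1, which shorten G protein signals, gave −0.52 and −0.37. Of 21 genes of the cAMP pathway, 5 rose and 2 fell (median 0.07). The adenylyl cyclase genes went both ways: Adcy7 and Adcy6 rose by 0.47 and 0.49, and Adcy4 gave −0.22 (limma adjusted p = 0.0391). Adcy3 and Adcy9 gave −0.20 and 0.16 and did not pass (limma adjusted p = 0.0673 and 0.135). Prkacb and Prkar1b, subunits of protein kinase A, rose by 0.35 and 0.36 and the phosphodiesterase gene Pde3b by 0.27, and Prkar2a gave −0.30. Adcy4 is given beside Adcy7 and Adcy6 and is not among the 21 called genes followed below. Of 12 genes known to be induced by cAMP, Rgs2 alone passed (median −0.12), a share below the 19.4% of all genes. Without SRC-3, 0 genes of these 3 lists passed by limma, with 3 of 22, 6 of 21 and 5 of 12 at an unadjusted p under 0.05, where 12.5% of all genes were. The lists share genes, so these are not separate counts: Rgs2 is also in the G protein list, and Pde4b and Pde4d are in both cAMP lists. The smallest p among them was that of Pde8a, a phosphodiesterase gene, at 0.57 (limma adjusted p = 0.0544), and Crem, a transcription factor gene induced by cAMP, gave 0.38 (0.146). All 12 tested genes of the cAMP-induced list had a positive log2 fold change there, with a median of 0.29 beside 0.02 over all genes. None of them passed, and the SE reached 0.35 (Nr4a3). The share of all genes with a positive value was not counted, and the list was not tested as a set. In this list 13 genes were measured, 1 of them below the filter on every array. The mean log2 signal of these 13 was 9.54 to 9.63 on the SRC-3-deficient and 9.15 to 9.51 on the SRC-3 wild-type arrays.

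**Figure D3:**
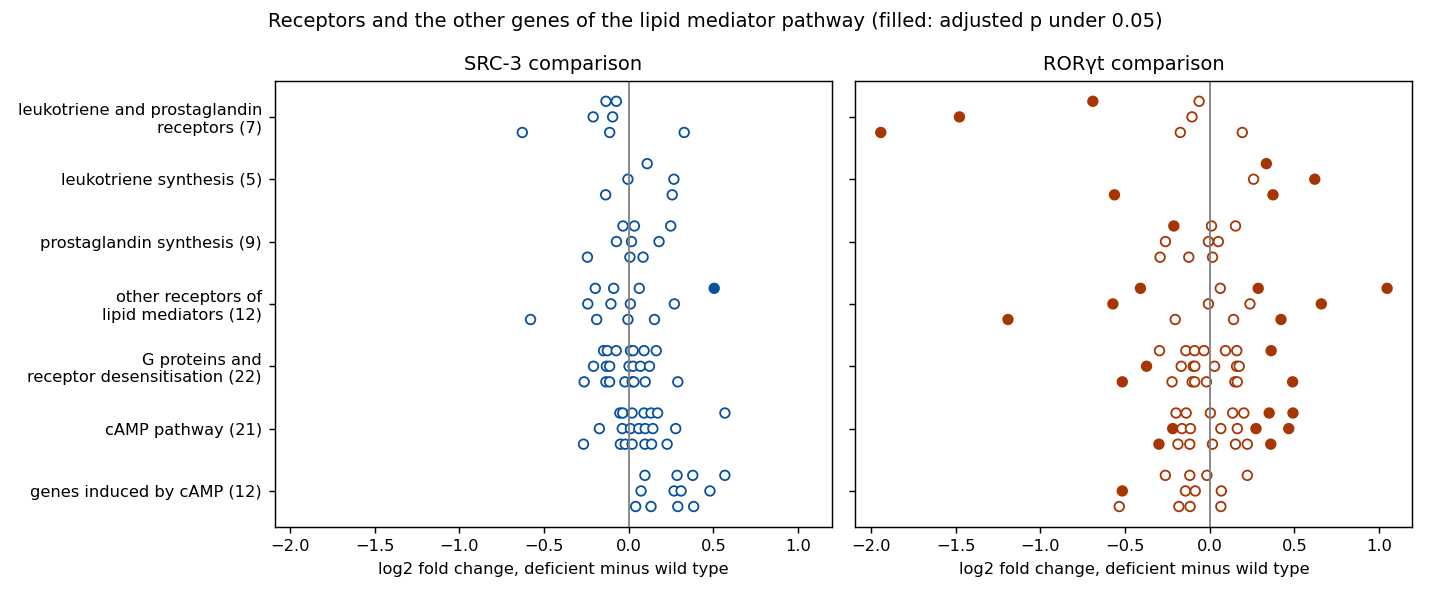
Log2 fold change (horizontal axes, deficient minus wild type) of the receptor genes in the top row and of each tested gene of the 6 pathway lists below, with the number of genes in parentheses, for the SRC-3 comparison (left) and the RORγt comparison (right); filled points have an adjusted p under 0.05, and vertical scatter within a row has no meaning. Cysltr2 and Ltb4r1, at −1.94 and −1.48, are the points farthest to the left in the RORγt panel, and S1pr1, at 1.05, is farthest to the right.

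Of the 21 pathway genes named as called in the RORγt comparison, 6 were called with any 1 array left out: Abcc1, Gpr183, Grk6, P2ry10, S1pr1 and S1pr3. The other 15 lost the call without at least 1 RORγt array, and with the sex term Gpr183 and S1pr1 alone passed (limma adjusted p = 0.0350 and 0.0438). The sex term moved the log2 fold change by over 1.5 times for Adcy6 (0.49 to 0.22), Abcc4 (−0.21 to −0.11) and Dpep2 (0.33 to 0.19). The rest of these 21 pathway genes stayed within 1.5 times, among them P2ry10 (0.66 to 0.67), S1pr3 (−0.57 to −0.52) and Rgs2 (−0.52 to −0.58).

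**Figure D4:**
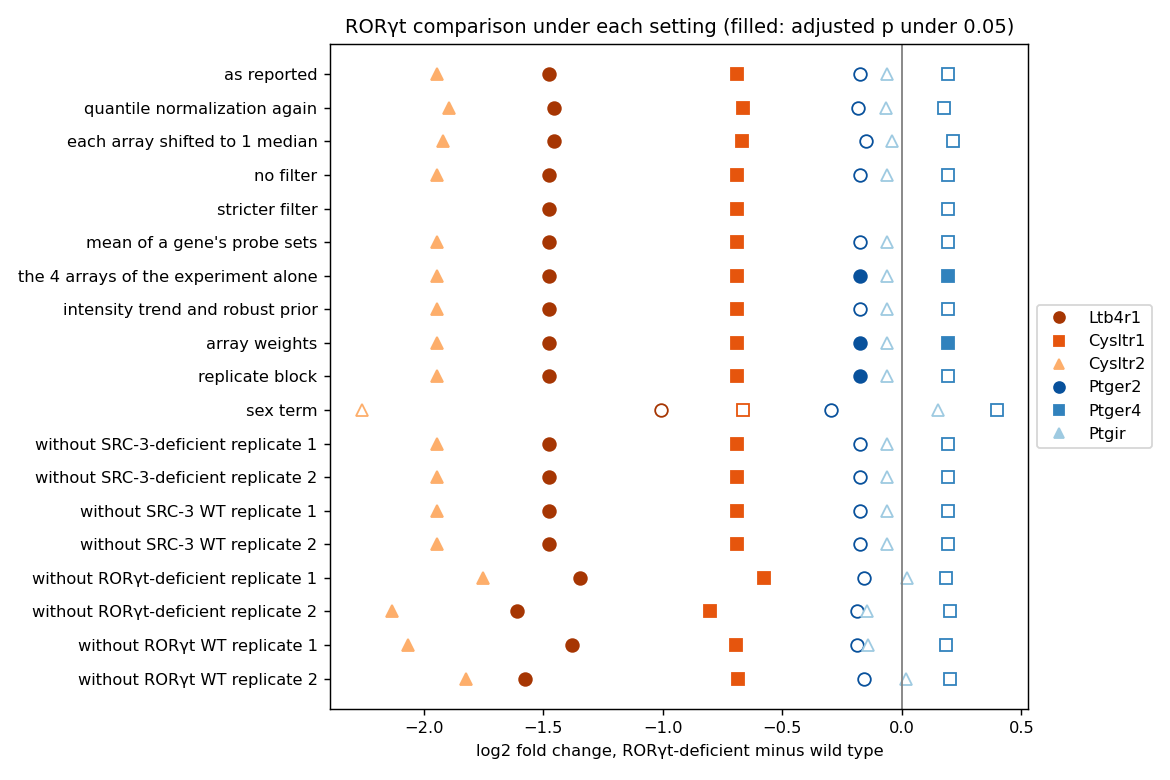
Log2 fold change of the 6 tested receptor genes in the RORγt comparison (horizontal axis) as reported and under each alternative setting (rows); filled symbols have an adjusted p under 0.05. The 3 leukotriene receptor genes are filled in every row in which they were tested except that of the sex term, Ptger2 and Ptger4 are filled with the 4 arrays alone and with array weights, and Ptger2 also with the replicate block.

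The genes whose pattern lay nearest to each receptor gene were found by Pearson correlation over the 8 arrays, after the mean of each experiment was taken off, among 10595 tested genes that are not predicted. These 8 points share 4 groups of replicates, and the values are descriptions. Nearest to Cysltr2 were Mdfic (r = 0.994), Dnm1 (0.994) and Tex2 (0.993), and nearest to Ltb4r1 were Tnfrsf25 (0.995), Crybg3 (0.993) and Riok2 (0.992). For Cysltr1 they were Klhl21 (0.994), Gsto1 (0.993) and Msto1 (0.993). These 9 genes had log2 fold changes of −0.65 to −0.22 without RORγt, a direction that their choice by likeness to genes that fell on the same arrays fixes. For Ptger2 they were Chsy1 (0.992), Med13l (0.990) and Pes1 (0.986), for Ptger4 Fas (0.990), Mbp (0.977) and Scn9a (0.977), and for Ptgir Ormdl1, Zfp747 and Ngrn (0.953 to 0.955).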

How the data were processed

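Total RNA was hybridised to 8 arrays, 1 per sample. The deposited values are log2 signals per probe set. Per the submitters' processing notes, the authors used RMA and Affymetrix Expression Console (no version given). The values were used as deposited. Of 35556 probe sets, the 21789 with 1 symbol in the platform table were used, and the one with the highest mean stood for its gene. A limma 3.58.1 model (R 4.3.3) took the mean of each group over the 8 arrays (4 residual degrees of freedom), two-sided, with Benjamini-Hochberg adjustment over all 11128 genes tested and a threshold of 0.05. The fit was also run on simulated data with independent noise and shifts planted in the RORγt-deficient group. That run held no sex difference and no deviations shared between arrays, so it does not test the calls above for either. The receptor genes and lists were chosen with earlier results of these data known. All receptor genes are named, with up to 6 called genes of each pathway list or else up to 2 of smallest p, and the 3 genes nearest in pattern. Adcy3, Adcy4 and Adcy9 are given besides, as the other adenylyl cyclase genes tested. The sex term was added after seeing the data. Of 189 listed genes, 17 are not analysed here. Promoters come from RefSeq (GRCm38.p6). With 2 arrays per group, their number limits precision.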

Additional observations from a re-analysis of the deposited data

Results flagged for a closer look

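The effect of genotype passed the threshold for a difference between the experiments for 2 receptor genes (RORγt log2 fold change minus SRC-3 log2 fold change, limma, 2 arrays per group). The difference was −0.59 for Cysltr1 (adjusted p = 0.0490) and −1.83 for Cysltr2 (adjusted p = 0.0494). Both RORγt-deficient arrays were lower than both wild-type arrays for each gene. Both values lay close to the threshold. Among the alternatives counted next, the sex term and the run without SRC-3-deficient replicate 2 give the same estimate of this difference by construction, so they are not separate checks. The call was lost in 13 of 17 alternatives for Cysltr1 and in 10 of 16 for Cysltr2, with the sex term among them (adjusted p = 0.111 and 0.0896).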

How the results depend on the processing

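The RORγt falls of Cysltr2, Ltb4r1 and Cysltr1 kept their direction under every alternative that could test them, and their calls under all but the sex term, with which 0 of 6 receptor genes were called; Cysltr2, Ptger2 and Ptgir were not tested under the stricter filter. With the 4 arrays alone or with array weights 5 receptor genes were called, and with the replicate block 4. The SRC-3 count of 0 became 1 with the replicate block (Ltb4r1, limma adjusted p = 0.0400). The count of 2 for the difference of the comparisons was 0 after a new quantile normalization, after a shift of each array to 1 median and with the sex term, 1 with no filter, the stricter filter or array weights, and 0 to 1 with 1 array left out. It was 3 with the replicate block, where Ltb4r1 also passed (limma adjusted p = 0.0256). Over all genes, the SRC-3 comparison called 14 with the stricter filter, 0 with its 4 arrays alone, 47 with an intensity trend and robust prior, 10 with array weights or the sex term, 301 with the replicate block, and 0 to 61 with 1 array left out. The RORγt comparison called 3389 with its 4 arrays alone, 3679 with array weights, 3411 with the replicate block, 95 with the sex term, and 486 to 2539 with 1 array left out. Same-numbered arrays deviated together in the SRC-3 experiment (r = 0.54 across genes) and not in the RORγt experiment (r = 0.002), and no label pairs them. Why the counts moved was not tested. A signal near the filter value, as that of Cysltr2 without RORγt, limits the size of a fold.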
